A study of Mus musculus with 108 samples.

Results

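Kidney RNA collected at zeitgeber time 6 (ZT6, 6 h after lights on) was compared between mice labelled Bmal1-iKO and Bmal1-flox, written iKO and flox here. The members are the 6 libraries that the labels place in kidney at that time, 3 iKO and 3 flox, out of 36 kidney libraries and as many again in each of 2 other tissues, and they are described across the 17630 genes that passed a filter on low counts. Both genotypes were male C57BL/J mice aged 8 to 12 weeks, housed with 12 h of light a day and with food and water always present. The series also holds kidney at the other 5 times (30 libraries), and liver and white adipose tissue at all 6 times. Its title concerns a clock of the intestine and the rhythmic metabolism of the liver. The labels give neither the Cre line nor the cells in which Bmal1 is deleted, so the kidney is not stated to have lost the gene. Samples are listed separately, but nothing says that each is a different animal, so p-values cover only the spread among these libraries, part of which may be technical.

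Bmal1, whose symbol in the files is Arntl, is a transcription factor that pairs with CLOCK or its relative NPAS2 on E-box sequences and drives the genes of its own repressors, the PER and CRY proteins. A second loop runs through the nuclear receptors REV-ERB and ROR, which repress and activate Arntl itself. In kidney the clock is known for daily changes in sodium transport, filtration and blood pressure, and light, feeding and signals from other organs can set its phase.

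Total counts per library ran from 17345616 to 20632130, and no pair of libraries within a group agreed within sampling noise. Kidney markers were high in all 6 libraries. Lrp2 of the proximal tubule stood at 504 to 1836 CPM (counts scaled to a common library size) and Umod of the thick ascending limb at 391 to 4278 CPM. Xist had 1 to 5 reads per library, and the 4 Y-linked genes averaged 4.62 to 5.15 log2 CPM in these libraries labelled male.

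Across the 12958 genes whose mean reached 1 log2 CPM, the main split of the 6 libraries did not follow genotype. The first principal component carried 69.2% of the variance and placed iKO 1 and iKO 2 at -47.8 and -54.8 and iKO 3 at 43.5, against -29.8 for flox 1 and 36.8 and 52.1 for flox 2 and flox 3. So iKO 1, iKO 2 and flox 1 stood on one side, and iKO 3, flox 2 and flox 3 on the other. The liver libraries with the numbers iKO 1, iKO 2 and flox 1 at ZT6 are 3 of 11 in the series whose cell cycle genes averaged above 2 log2 CPM. Results are given with all libraries and, for many that the split touches, also without the 11 numbers. This leaves out the kidney and liver libraries that carry the genotype, time and number of those 11 liver libraries. At ZT6 in kidney that leaves iKO 3 alone against flox 2 and flox 3, and the lone library is assumed to vary like those of other groups. iKO 3 also stands apart, in adipocyte markers, whose mean was 3.04 log2 CPM there and at most -1.31 log2 CPM in the other 5 libraries.

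No gene was called different between iKO and flox at ZT6 by edgeR's quasi-likelihood test at an adjusted p under 0.05 (0 of 17630, 0%), and the lowest adjusted p was 0.734. At an unadjusted p under 0.05, 617 genes (3.5%) were higher in iKO and 479 (2.72%) were lower. The 3 iKO libraries lay entirely above the 3 flox libraries in 637 genes (3.61%) and entirely below them in 580 (3.29%). Were the genotype labels exchangeable, a gene without ties would part in either direction with a probability of 0.1. A lack of overlap in a single gene is therefore weak evidence. DESeq2 called 1 gene, Npas2, with a log2 difference of 3.75 and an adjusted p of 0.000169. In edgeR, leaving out iKO 1 gave 1 call, again Npas2, and leaving out flox 3 gave 1 other, the predicted gene Gm2962 (log2 difference -2.85, adjusted p = 0.0386). With 1 library left out, the number of genes at an unadjusted p under 0.05 moved from 421 without flox 2 to 3784 without iKO 3. It was 431 without iKO 2, 591 without iKO 1 and 2414 without flox 1. Fitted alone, the 6 ZT6 libraries had 420 of 15737 genes (2.67%) at that p. The main fit takes its spread from all 36 kidney libraries. In what follows each gene is given by its values, since none passed the edgeR test with all libraries.

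**Figure D1:**
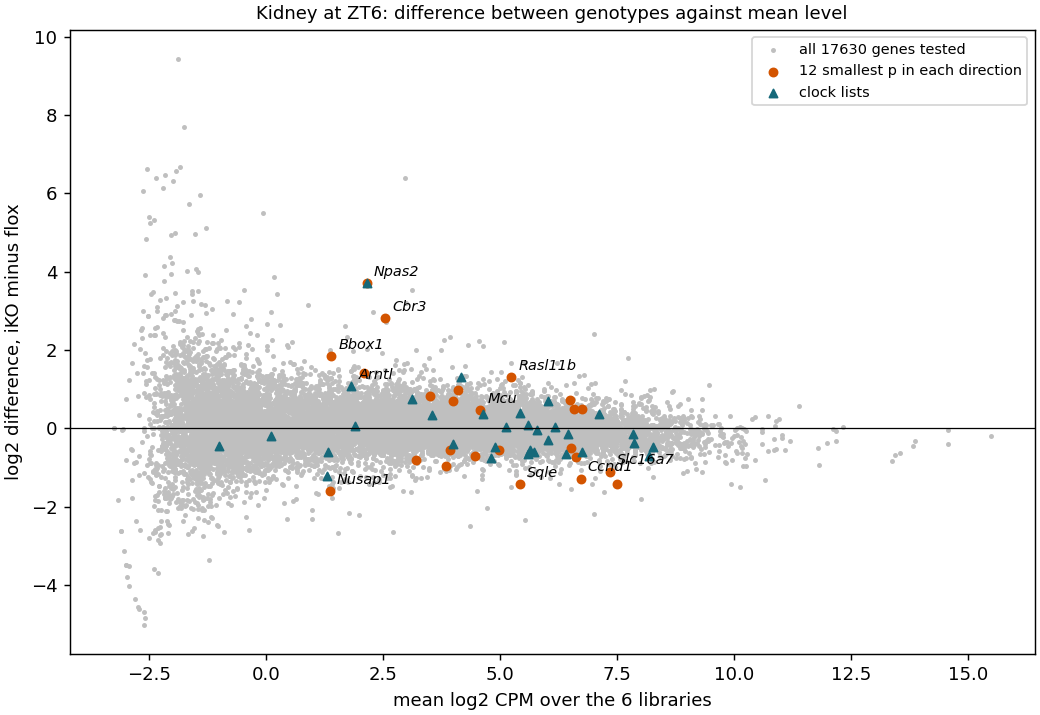
Each dot is 1 of 17630 genes, with its mean log2 CPM over the 6 kidney ZT6 libraries on the x axis and the fitted log2 difference, iKO minus flox, on the y axis. Orange dots are the 12 named genes with the smallest p in each direction and triangles are the clock genes. Npas2 stands at 3.71 and Sqle at -1.42, and no gene passed edgeR's adjusted test, while DESeq2 called Npas2.

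The clock was examined first, since Arntl is the gene named in the genotype. Arntl had 2.02, 13.5 and 3.82 CPM in iKO 1, 2 and 3, against 5.48, 1.27 and 2.17 CPM in flox 1, 2 and 3. The groups overlap, and iKO 2 is the highest of the 6. Its log2 difference was 1.09 with a standard error of 0.53 (edgeR adjusted p = 0.734), and it was -0.04 without iKO 2. Reads were counted over the whole gene and do not isolate a deleted exon, so the deletion itself is not tested. Arntl lies on chromosome 7 at 113207465 to 113314126, plus strand (GRCm38, GENCODE M21).

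Npas2, which encodes a partner of BMAL1 that can stand in for CLOCK, had the smallest p of the genes named here. It stood at 2.5, 35.2 and 23.8 CPM in iKO 1, 2 and 3, against 2.46, 0.95 and 1.18 CPM in flox 1, 2 and 3. All 3 iKO libraries were above all 3 flox libraries, but iKO 1 was close to flox 1, while iKO 2 and iKO 3 were far above. The log2 difference was 3.71 with a standard error of 0.77 (unadjusted p = 5.2e-05, edgeR adjusted p = 0.734). Without iKO 1 it was 4.24 (edgeR adjusted p = 0.0303), and without the 11 numbers 4.46 (edgeR adjusted p = 0.923). The gene lies on chromosome 1 at 39193731 to 39363236, plus strand (GRCm38, GENCODE M21).

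The promoters of clock genes that results here turn on are shown because Npas2 and Arntl stood high, and Ciart and Tef low, in the same iKO library. Each is the 250 bases before the start site in the RefSeq table (GRCm38.p6), read 5′ to 3′ on the gene's strand, with motif matches in capitals. The motifs searched on both strands were the E-box CACGTG, the letters of the ROR and REV-ERB half-site TNGGTCA, and the sterol element TCACNCCAC, and no matches of different motifs overlapped in the windows shown. Over 32851 promoters of the same length, 6.02% held CACGTG, 9.19% held TNGGTCA and 1.05% held TCACNCCAC. Npas2 lies at chr1:39194022-39194271 (plus strand), Arntl at chr7:113207215-113207464 (plus), Nfil3 at chr13:52981040-52981289 (minus), Ciart at chr3:95882229-95882478 (minus) and Tef at chr15:81802423-81802672 (plus). Arntl and Tef have 2 windows each in that table, and 1 is shown.
Npas2: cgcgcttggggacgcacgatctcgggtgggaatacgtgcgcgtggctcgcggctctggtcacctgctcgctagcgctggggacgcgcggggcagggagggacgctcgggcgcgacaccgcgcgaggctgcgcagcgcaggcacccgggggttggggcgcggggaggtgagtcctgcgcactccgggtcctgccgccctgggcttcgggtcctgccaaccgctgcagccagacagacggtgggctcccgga
Arntl: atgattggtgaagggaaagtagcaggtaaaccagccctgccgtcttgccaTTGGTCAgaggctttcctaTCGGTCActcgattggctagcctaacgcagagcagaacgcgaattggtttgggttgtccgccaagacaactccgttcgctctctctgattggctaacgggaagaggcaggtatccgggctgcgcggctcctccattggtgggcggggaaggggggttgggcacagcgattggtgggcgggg
Nfil3: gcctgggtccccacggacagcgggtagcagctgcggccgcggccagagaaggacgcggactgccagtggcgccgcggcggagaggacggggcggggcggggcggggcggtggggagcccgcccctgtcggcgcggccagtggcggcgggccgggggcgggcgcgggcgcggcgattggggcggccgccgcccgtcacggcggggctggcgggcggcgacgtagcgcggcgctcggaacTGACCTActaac
Ciart: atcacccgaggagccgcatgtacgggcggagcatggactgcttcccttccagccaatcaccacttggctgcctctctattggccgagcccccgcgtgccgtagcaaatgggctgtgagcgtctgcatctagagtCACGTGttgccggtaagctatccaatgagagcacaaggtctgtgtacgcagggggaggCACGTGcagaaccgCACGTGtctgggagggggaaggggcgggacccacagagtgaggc
Tef: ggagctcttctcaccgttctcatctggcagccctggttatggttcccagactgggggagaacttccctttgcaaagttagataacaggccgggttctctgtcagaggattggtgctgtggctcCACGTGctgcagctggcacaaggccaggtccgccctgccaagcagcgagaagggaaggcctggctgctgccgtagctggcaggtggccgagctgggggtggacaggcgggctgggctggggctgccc
The Npas2 window held none of the 3 motifs. By GENCODE M21 the Npas2 and Tef windows lie inside the genes, which begin at 39193731 and 81802421. Those of Nfil3 and Ciart overlap their genes in part. Bases before the GENCODE start of Npas2 were not searched. The Arntl window held TNGGTCA 2 times, as TTGGTCA and TCGGTCA, starting 200 and 181 bases before the start site. The Nfil3 window held it once on the other strand, as TAGGTCA. The looser pattern does not show that a match is the half-site. The Ciart window held CACGTG 3 times and the Tef window once. A match describes these letters and is not a measured site.

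In iKO 2 many clock genes stood away from the other libraries, in both directions. Cry1, a repressor of CLOCK and BMAL1, had 20.3, 54.7 and 21.4 CPM in iKO 1, 2 and 3, against 22, 10.9 and 5.81 CPM in flox 1, 2 and 3 (log2 difference 1.31, SE 0.64). Nfil3, a repressor of the D-box genes that DBP and TEF activate, had 4.96, 24.7 and 12.6 CPM in iKO and 16.4, 5.82 and 2.71 CPM in flox. In both genes iKO 2 was the highest and the groups overlap.

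The genes of the opposite phase were lowest in iKO 2. Dbp, a D-box activator, had 79.7, 12.4 and 77.8 CPM in iKO 1, 2 and 3, against 19.5, 99.4 and 141.8 CPM in flox 1, 2 and 3. Nr1d1, which encodes REV-ERB alpha, had 36, 9.13 and 29.9 CPM in iKO and 16.2, 51.0 and 59.2 CPM in flox. For both genes the lowest library was iKO 2 and the next lowest flox 1. Ciart, a repressor of CLOCK and BMAL1, had 2.94, 0.353 and 2.49 CPM in iKO and 1.94, 3.42 and 8.23 CPM in flox, and the fit gave a log2 difference of -1.23 (SE 0.75). Tef had 313, 136 and 254 CPM in iKO and 294, 430 and 433 CPM in flox (log2 difference -0.72, SE 0.31, unadjusted p = 0.026). With its groups overlapping only between iKO 1 and flox 1, Tef was lower in iKO 2 and iKO 3 than in every flox library.

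**Figure D2:**
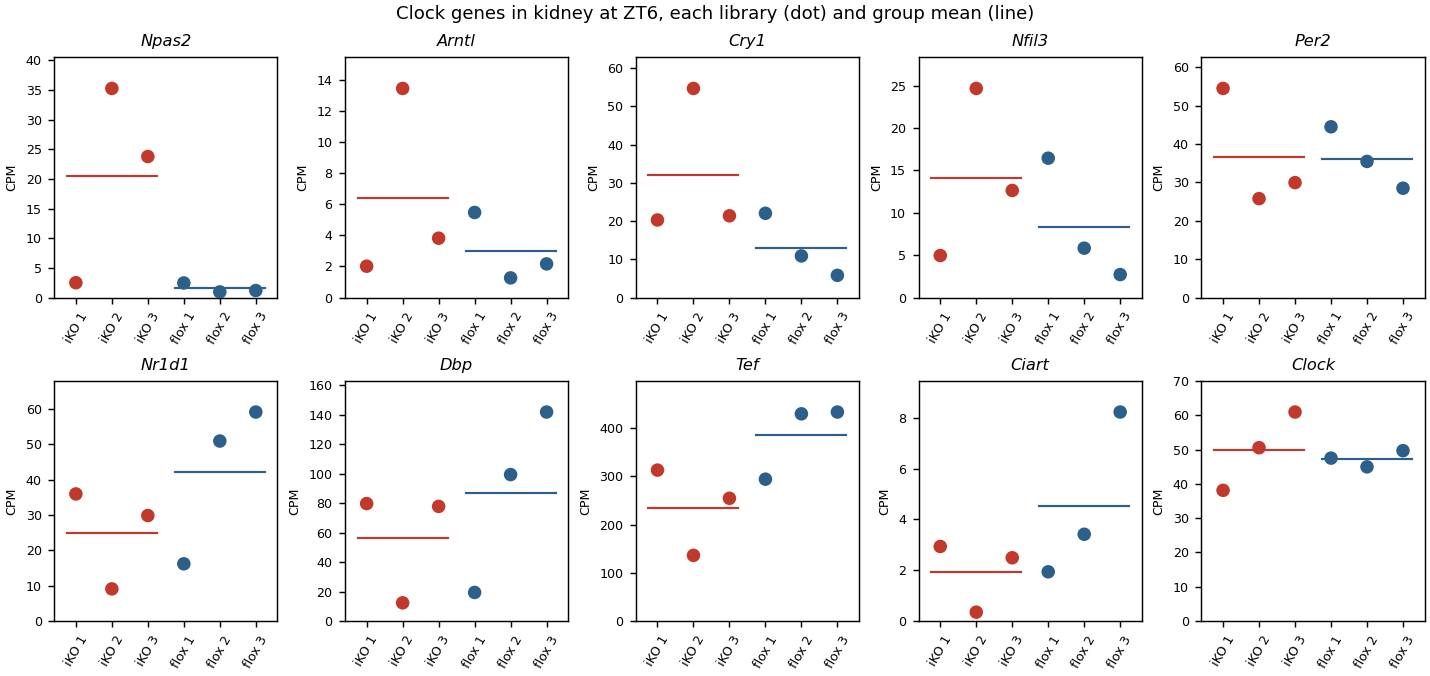
CPM of 10 clock genes on a linear axis from 0, with iKO 1 to 3 in red on the left and flox 1 to 3 in blue on the right; each dot is a library and each line a group mean. In iKO 2, Npas2 (35.2 CPM), Arntl (13.5), Cry1 (54.7) and Nfil3 (24.7) are the highest of the 6 and Nr1d1 (9.13), Dbp (12.4), Tef (136) and Ciart (0.353) the lowest.

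Of the 7 clock activators, 10 repressors and 17 output factors tested, none was called by edgeR with all libraries, and Npas2 alone was called by DESeq2. Among the activators Arntl and Npas2 had an unadjusted p under 0.05, and among the repressors Cry1 alone did. They were higher in iKO, as were 3.5% of all genes at that p. The output factors had 2, both lower in iKO (2.72% of all genes), Tef and Coq10b. Coq10b, which binds coenzyme Q in mitochondria, had 35.7, 30.2 and 52.4 CPM in iKO and 46.4, 81.4 and 59.0 CPM in flox. Clock itself had 38.1, 50.5 and 60.9 CPM in iKO and 47.5, 45.0 and 49.7 CPM in flox, a log2 difference of 0.07 (SE 0.19). Per1 had 97.2, 43.6 and 23.6 CPM in iKO and 60.9, 34.1 and 31.2 CPM in flox, and Per2 had 54.5, 25.8 and 29.9 CPM in iKO and 44.5, 35.5 and 28.5 CPM in flox. For these 3 genes the direction turned when single libraries were left out, and their groups overlap.

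The other times of day show where the values of iKO 2 fall. Npas2 in iKO had a mean of 15.7, 20.5, 5.39, 27.0, 32.0 and 29.7 CPM at ZT2, 6, 10, 14, 18 and 22, and in flox 5.48, 1.53, 2.55, 10.9, 22.1 and 17.3 CPM. At ZT14 the 3 iKO libraries had 15.6, 35.7 and 29.6 CPM of Npas2 and 8.19, 6.19 and 12.4 CPM of Dbp, so iKO 2 at ZT6, with 35.2 CPM of Npas2 and 12.4 CPM of Dbp, was close to the highest of each. The Npas2 value is not particular to ZT14. The highest iKO library had 34.0 CPM of Npas2 at ZT2, 39.2 CPM at ZT18 and 36.5 CPM at ZT22, but 9.88 CPM at ZT10. Arntl in iKO 2 at ZT6 (13.5 CPM) remained below the 22.6 to 36.4 CPM of iKO at ZT14. The library with the number iKO 2 in liver at ZT6 was high for the same genes, with 24.6 CPM of Npas2 and 44.6 CPM of Cry1, where the other liver iKO libraries had 0.310 and 5.53 CPM of Npas2 and the liver flox libraries 0.278, 0 and 0.253 CPM. What set these values apart was not tested.

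**Figure D3:**
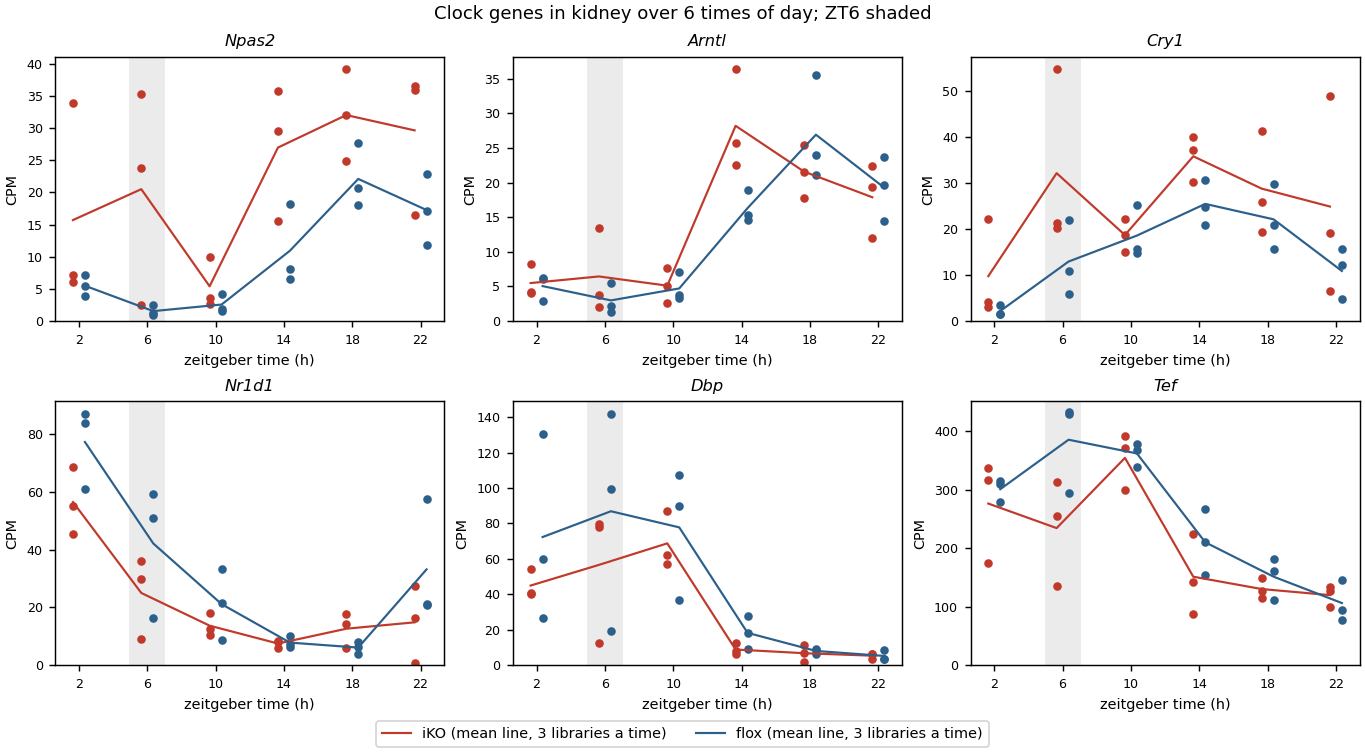
CPM of 6 clock genes in kidney at 6 zeitgeber times, with ZT6 shaded; dots are single libraries and lines the means of 3, iKO in red and flox in blue. Npas2 in iKO at ZT6 spans 2.5 to 35.2 CPM, while flox spans 0.95 to 2.46 CPM, and Arntl at ZT6 spans 2.02 to 13.5 CPM in iKO and 1.27 to 5.48 CPM in flox.

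For Npas2 the difference was positive at every time, with log2 values of 1.54, 3.71, 1.07, 1.30, 0.54 and 0.78 at ZT2, 6, 10, 14, 18 and 22. At ZT6 it exceeded the mean of the other 5 times by 2.67 (SE 0.80, unadjusted p = 0.00258, edgeR adjusted p = 0.890). That test rests on the same 6 ZT6 libraries and called 0 of 17630 genes (0%) in edgeR and also 0 in DESeq2, while 890 had an unadjusted p under 0.05 in edgeR. That number was 405 without iKO 2, 410 without flox 2, 525 without iKO 1, 1560 without flox 1, 2993 without iKO 3 and 472 without the 11 numbers. With predicted genes and pseudogenes passed over, the smallest p values of that test belonged to Stk32b, Sox10 and Zfp114. Stk32b is a kinase gene, Sox10 a transcription factor of the neural crest and Zfp114 a zinc finger gene. Stk32b had 13.6, 9.63 and 15.2 CPM in iKO and 19.1, 23.2 and 18.8 CPM in flox at ZT6, with no overlap, and its difference departed from the other times by -0.99 (SE 0.23, edgeR adjusted p = 0.890). Sox10 and Zfp114 stood below 1 CPM in all 6 libraries.

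The ZT6 difference in kidney was also set against that in liver in a fit of all libraries of the 3 tissues, which called 0 of 22789 genes (0%), with 699 at an unadjusted p under 0.05 (1110 without iKO 3). DESeq2 called 78, of which 43 were higher and 35 lower in that contrast, and edgeR without the 11 numbers called 7. With predicted genes and pseudogenes passed over, the smallest p in edgeR belonged to Cybrd1, Snrpd2 and Vit, each with an adjusted p of 0.510. Snrpd2, a core protein of the splicing machinery, had 79.9, 72.9 and 40.0 CPM in kidney iKO and 40.4, 27.5 and 36.7 CPM in kidney flox. In liver it had 17.2, 24.4 and 43.8 CPM in iKO and 47.7, 107.6 and 62.1 CPM in flox, so the order of the genotypes differed between the organs. Cybrd1 and Vit were under 1 CPM in every liver library and are near the lower limit of counting. For Npas2 the kidney difference minus the liver difference was -1.96 (SE 1.42, edgeR adjusted p = 1).

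Genes of sterol synthesis were mostly lower in iKO. Sqle, squalene epoxidase, is an early enzyme of the sterol branch. Among genes lower in iKO whose mean reached 1 log2 CPM, predicted genes and pseudogenes passed over, Sqle had the smallest p. It stood at 21.4, 22.7 and 41.3 CPM in iKO 1, 2 and 3, against 33.0, 95.5 and 100.5 CPM in flox 1, 2 and 3. Only flox 1 lay among the iKO libraries. The log2 difference was -1.42 with a standard error of 0.38 (unadjusted p = 0.000764, edgeR adjusted p = 0.734), and -1.25 without the 11 numbers.

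Of 25 genes of cholesterol synthesis and uptake, 22 had a negative difference, 7 had an unadjusted p under 0.05 (all lower in iKO), and in 5 the iKO libraries lay entirely below flox. Over all genes these shares were 2.72% and 3.29%. The median log2 difference was -0.48, where the median of all genes was -0.01, and without the 11 numbers it was -0.32. Dhcr7, the last enzyme of one route to cholesterol, had 13.3, 12.5 and 14.5 CPM in iKO and 17.5, 25.4 and 22.7 CPM in flox, with no overlap (log2 difference -0.70, SE 0.22). Insig1, which holds the sterol sensor SCAP in the endoplasmic reticulum, had 22.4, 25.2 and 36.3 CPM in iKO and 34.6, 70.6 and 85.7 CPM in flox. Hsd17b7, a sterol reductase, had 15.7, 12.8 and 25.1 CPM in iKO and 26.7, 26.2 and 32.3 CPM in flox, again with no overlap.

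The promoter of Hmgcs1, the synthase that makes HMG-CoA, is shown because the sterol response element is the known site of SREBP in this pathway. Hmgcs1, chosen for its promoter with its values known, had 273, 275 and 442 CPM in iKO and 416, 619 and 487 CPM in flox, a log2 difference of -0.62 (SE 0.29). Its 250 bases before the start site lie at chr13:119690101-119690350 (plus strand, RefSeq, GRCm38.p6), and the capitals mark the single match to TCACNCCAC, which begins 137 bases before the start site.
Hmgcs1: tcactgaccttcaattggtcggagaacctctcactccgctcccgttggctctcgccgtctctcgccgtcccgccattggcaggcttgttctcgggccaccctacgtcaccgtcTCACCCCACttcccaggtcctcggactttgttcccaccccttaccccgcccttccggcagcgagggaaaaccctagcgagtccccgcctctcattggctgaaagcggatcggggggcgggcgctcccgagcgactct

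Across times of day the mean log2 CPM of the sterol list at ZT6 was 4.38, 4.47 and 4.92 in iKO and 4.66, 5.24 and 5.37 in flox. The groups overlapped at ZT6, since flox 1 lay below iKO 3. The 3 lowest libraries were iKO 1, iKO 2 and flox 1, which also stood together in the main split. At ZT10 it ran from 4.91 to 4.97 in iKO and from 5.13 to 5.27 in flox, and at ZT18 from 4.13 to 4.72 in iKO and from 5.07 to 5.49 in flox, with no overlap at either time. The groups overlapped at the other 3 times, with 4.75 to 5.2 in iKO and 4.91 to 5.33 in flox at ZT2, 4.64 to 5.39 in iKO and 4.57 to 5.49 in flox at ZT14, and 4.60 to 5.03 in iKO and 4.46 to 5.16 in flox at ZT22.

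Cell cycle genes stood at low levels in all 6 libraries, and at lower ones in iKO. Their mean over 34 genes was 0.80, 1.14 and 0.59 log2 CPM in iKO 1, 2 and 3, against 1.17, 1.40 and 1.37 log2 CPM in flox 1, 2 and 3, with no overlap. Of the 34, 25 had a negative difference, 3 had an unadjusted p under 0.05 (all lower in iKO), and 7 lay entirely below flox, where 2.72% and 3.29% of all genes did so. The median log2 difference was -0.39, and -0.62 without the 11 numbers. Nusap1, a protein of the mitotic spindle, had 1.27, 0.76 and 2.55 CPM in iKO and 2.72, 6.14 and 5.03 CPM in flox, and Ccnb1, the mitotic cyclin B1, had 0.175, 0 and 0.106 CPM in iKO and 0.345, 1.58 and 1.28 CPM in flox. Ccnd1, the cyclin of the G1 phase, which is not on this list, had 71.0, 47.8 and 95.6 CPM in iKO and 95.2, 187 and 239 CPM in flox, overlapping only between iKO 3 and flox 1. Its log2 difference was -1.28 with a standard error of 0.36 (edgeR adjusted p = 0.734). At ZT2 the list also did not overlap, with 0.70 to 0.93 log2 CPM in iKO and 1.48 to 1.61 log2 CPM in flox, whereas at ZT10, 14, 18 and 22 the groups overlapped.

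The other genes with the smallest p had varied roles, and none was called by either tool with all libraries. Among those higher in iKO, Mcu, the pore of the mitochondrial calcium uniporter, had 26.7, 30.7 and 27.1 CPM in iKO and 23, 18.6 and 19.3 CPM in flox, with no overlap. Mapk7, the kinase ERK5, had 15.7, 17.3 and 12.5 CPM in iKO and 9.36, 8.10 and 8.13 CPM in flox. Bbox1, the last enzyme of carnitine synthesis, had 3.99, 7.36 and 3.77 CPM in iKO and 2.07, 1.33 and 0.79 CPM in flox. In these 3 genes all iKO libraries exceeded all flox libraries. Pax8, a transcription factor of kidney development, had 128, 155 and 75.7 CPM in iKO and 90.3, 66.5 and 59.4 CPM in flox, and overlapped. Rasl11b, a RAS-like GTPase, Nxph3, a neurexophilin, Rbm14, an RNA-binding protein, Hmx2, a homeobox factor, Dvl1, of WNT signalling, and F11r, a protein of tight junctions, had log2 differences from 0.50 to 1.41. Cbr3, a carbonyl reductase, had 35.3, 30.3 and 1.65 CPM in iKO and 5.87, 1.77 and 1.82 CPM in flox, and its difference turned to -0.13 without the 11 numbers.

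Among those lower in iKO, Slc16a7, the monocarboxylate carrier MCT2, had 97.7, 88.5 and 156 CPM in iKO and 187, 327 and 223 CPM in flox. Slc25a35, a mitochondrial carrier, had 17.7, 16.4 and 17.9 CPM in iKO and 32.1, 31.7 and 21.8 CPM in flox. Slc39a8, a zinc and manganese importer, had 74.8, 55.4 and 102 CPM in iKO and 121, 144 and 121 CPM in flox. None of these 3 overlapped. Col6a3, a chain of collagen VI, had 10.1, 10.6 and 10.1 CPM in iKO and 16.7, 24.7 and 18.6 CPM in flox, and Ggcx, the vitamin K-dependent carboxylase, had 11.8, 12.3 and 13.7 CPM in iKO and 17.1, 20.3 and 18.2 CPM in flox. Smim10l1, Sh3gl2, an endophilin, Serpinb8, a protease inhibitor, and the mitochondrial tRNA mt-Tp had log2 differences from -1.41 to -0.49.

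Markers of kidney segments overlapped between the genotypes in most cases. In bulk tissue, fewer cells of a type and less RNA per cell cannot be told apart. The lists of the tubule segments and of other kidney cells ran in both directions. The thick ascending limb had 3 of 8 markers at an unadjusted p under 0.05, all lower in iKO (2.72% of all genes). Slc12a1, the target of loop diuretics, had 664, 594 and 1429 CPM in iKO and 1163, 2386 and 1724 CPM in flox, and Umod, uromodulin, had 703, 391 and 2797 CPM in iKO and 1390, 4126 and 4278 CPM in flox. In both, iKO 3 lay within the flox range, and the log2 difference was -0.97 (SE 0.38) for Slc12a1 and -1.33 (SE 0.56) for Umod, or -0.52 and -0.59 without the 11 numbers. Markers of the late proximal tubule (S3) averaged 6.36, 6.0 and 9.26 log2 CPM in iKO and 6.98, 9.39 and 8.87 log2 CPM in flox, so iKO 3 was as high as flox 2 and flox 3. Their median log2 difference was -0.62, and 0.11 without the 11 numbers.

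Lists of the thin limb, principal cells, intercalated cells, podocytes and endothelium had positive medians, and in each the 3 highest libraries were iKO 1, iKO 2 and flox 1. Thin limb markers were positive in 6 of 7 cases, with a median log2 difference of 0.79, or 0.61 without the 11 numbers. Their mean was 7.27, 7.70 and 6.72 log2 CPM in iKO and 7.34, 6.38 and 5.44 log2 CPM in flox. The 7 markers of principal cells, which take up sodium and water in the collecting duct, were all positive, with a median of 0.50, or 0.06 without the 11 numbers. Of 9 markers of intercalated cells, which handle acid and base, 3 were higher in iKO and 1 lower at an unadjusted p under 0.05. Over all genes these shares were 3.5% and 2.72%. Foxi1, the transcription factor of these cells, had 56.7, 54.9 and 30.4 CPM in iKO and 35.9, 21.3 and 29.8 CPM in flox. Aqp6, a water channel gene, was the one lower in iKO, with 83.9, 55.8 and 46.7 CPM in iKO and 156, 93.6 and 62.3 CPM in flox. The groups overlap in both genes, and the median of this list was 0.27, or -0.14 without the 11 numbers. All 9 podocyte markers and all 12 endothelial markers were positive, with medians of 0.52 and 0.43, and without the 11 numbers the medians were -0.41 and 0.004. Neither list had a member whose 3 iKO libraries lay above flox (3.61% of all genes).

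Genes that androgens raise in mouse kidney spanned a wide range between libraries of the same genotype. Their mean over 20 genes was 4.38, 4.46 and 8.81 log2 CPM in iKO 1, 2 and 3, against 5.32, 8.72 and 8.66 log2 CPM in flox 1, 2 and 3. Cyp2j13, a cytochrome P450, had 0, 0.05 and 237 CPM in iKO and 0.518, 168 and 279 CPM in flox. Slco1a1, an organic anion transporter, had 0, 0.20 and 499 CPM in iKO and 0.04, 213 and 207 CPM in flox, and Acsm3, an acyl-CoA synthetase, had 0.965, 0.504 and 628 CPM in iKO and 2.20, 557 and 572 CPM in flox. These 3 genes were chosen after their values were seen, and in each the level in iKO 1, iKO 2 and flox 1 was near 0. No gene of the list had an unadjusted p under 0.05, and the median log2 difference was -0.71, or 0.10 without the 11 numbers. By the rule for naming, Nat8, an N-acetyltransferase, Gusb, beta-glucuronidase, Ugt8a, a galactosyltransferase, and Hsd3b4, a steroid dehydrogenase, had the smallest p, from 0.108 to 0.184. Of the 20, 7 belong also to other lists used here. All 6 libraries carried Y-linked RNA, as given above.

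**Figure D4:**
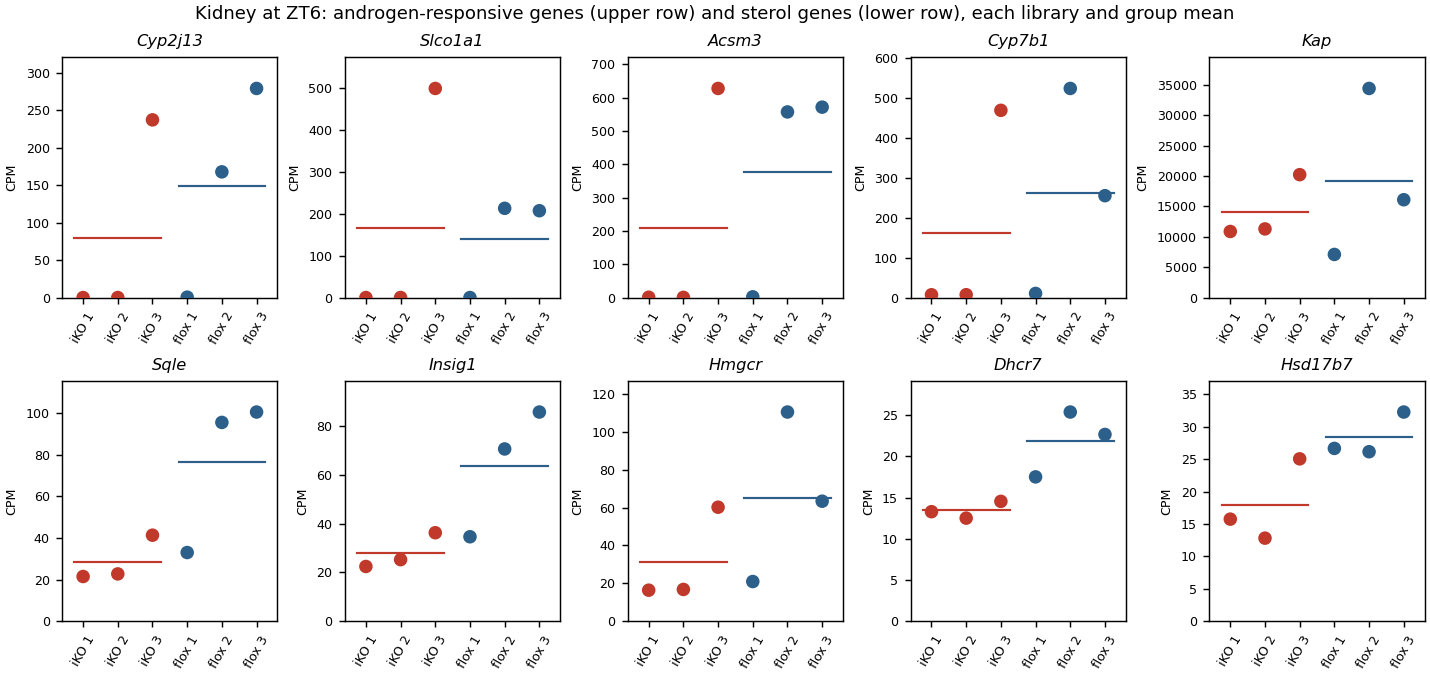
CPM of 5 androgen-responsive genes (upper row) and 5 sterol genes (lower row), each on a linear axis from 0, with iKO 1 to 3 in red on the left and flox 1 to 3 in blue; dots are libraries and lines group means. Slco1a1 reads 0, 0.20 and 499 CPM in iKO and 0.04, 213 and 207 CPM in flox, while for Dhcr7 the 3 iKO libraries (12.5 to 14.5 CPM) lie below the 3 flox libraries (17.5 to 25.4 CPM).

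Interferon-stimulated genes were high in the same 3 libraries, iKO 1, iKO 2 and flox 1. Over 46 genes the mean was 5.62, 6.57 and 3.19 log2 CPM in iKO and 5.95, 4.03 and 2.83 log2 CPM in flox. All 46 had a positive difference, 1 had an unadjusted p under 0.05 (3.5% of all genes), and in none were the groups apart. The median log2 difference was 0.82, and -0.28 without the 11 numbers. Irf1, a transcription factor of this response, had 40.2, 40.3 and 14.3 CPM in iKO and 22.9, 11.1 and 9.36 CPM in flox (log2 difference 1.12, SE 0.41). The 15 genes of MHC class I presentation were all positive, with none whose groups were apart. Of the 15, 5 had an unadjusted p under 0.05 (3.5% of all genes were higher at that p). The MHC class I list was also highest in iKO 1, iKO 2 and flox 1, with means of 6.49, 6.88 and 6.39 log2 CPM. In iKO 3, flox 2 and flox 3 its mean was at most 5.06 log2 CPM, so its values followed the main split. Macrophage markers averaged 3.42, 4.33 and 2.12 log2 CPM in iKO and 4.08, 2.67 and 2.23 log2 CPM in flox, and red blood cell markers 4.35, 5.17 and 1.02 in iKO and 3.96, 2.31 and 1.51 in flox. The part of these cells in the interferon values was not tested.

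Immediate early genes, which respond within minutes to stimulation of a cell, had a positive difference in 23 of 24 cases. Of the 24, 8 had an unadjusted p under 0.05, all higher in iKO (3.5% of all genes), and in 1 the iKO libraries lay entirely above flox (3.61% of all genes). The median log2 difference was 0.58, or 0.17 without the 11 numbers. Ier5 had 31.8, 41.3 and 17.4 CPM in iKO and 18.4, 12.3 and 11 CPM in flox, and Junb had 44.8, 49.7 and 17.9 CPM in iKO and 26.5, 10.4 and 13.6 CPM in flox. Klf2, a factor of endothelium and immune cells, had 124, 99.5 and 20.8 CPM in iKO and 51.1, 23.9 and 23.8 CPM in flox, and its difference turned to -0.19 without the 11 numbers. Of 20 heat shock genes 13 had a positive and 7 a negative difference, with a median of 0.14. At an unadjusted p under 0.05, 2 were higher in iKO (3.5% of all genes), and 3 lay entirely above flox (3.61%). The inducible heat shock genes Hspa1a and Hspa1b were above flox in every iKO library. Hspa1b had 138, 212 and 83.3 CPM in iKO and 73.6, 36.3 and 25 CPM in flox.

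The 13 mitochondrially encoded genes all had a negative difference, with 6 at an unadjusted p under 0.05 (2.72% of all genes were lower at that p) and a median of -0.94. In flox 2 the mitochondrial share of reads was 19.6%, and in the other 5 libraries 12.3% to 13.7%, and without flox 2 the median was -0.26. mt-Co3, a subunit of cytochrome oxidase, had 655, 767 and 780 CPM in iKO and 1339, 3852 and 1006 CPM in flox, with no overlap. Cytosolic ribosomal protein genes ran the other way, with 40 of 42 positive, 11 higher at an unadjusted p under 0.05 (3.5% of all genes), none entirely above flox and a median of 0.30, or -0.14 without the 11 numbers. Rps15 had 640, 540 and 219 CPM in iKO and 267, 183 and 247 CPM in flox, so iKO 3 lay within the flox range.

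iKO 3 differed from the other 5 libraries in fat markers. Adipoq, the hormone adiponectin, had 0.132, 0 and 13.6 CPM in iKO and 0, 0 and 0 CPM in flox, and Plin1, the coat of fat droplets, had 0.132, 0 and 14.6 CPM in iKO and 0, 0.063 and 0 CPM in flox. Ucp1, the uncoupling protein of brown fat, had 0, 0 and 11.6 CPM in iKO and at most 0.063 CPM in flox. All 9 adipocyte markers were positive, and their mean was -1.43, -2.38 and 3.04 log2 CPM in iKO and -2.33, -1.31 and -2.29 log2 CPM in flox. Kidney libraries at other times also reached high values of this list. Its highest library in iKO at ZT2, 10, 14, 18 and 22 had -2.27, -2.13, 0.14, -0.85 and 3.96 log2 CPM. In flox the highest had -2.13, 1.60, -0.76, -0.025 and 2.38 log2 CPM. The part of these markers in the other values of iKO 3 was not tested.

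**Figure D5:**
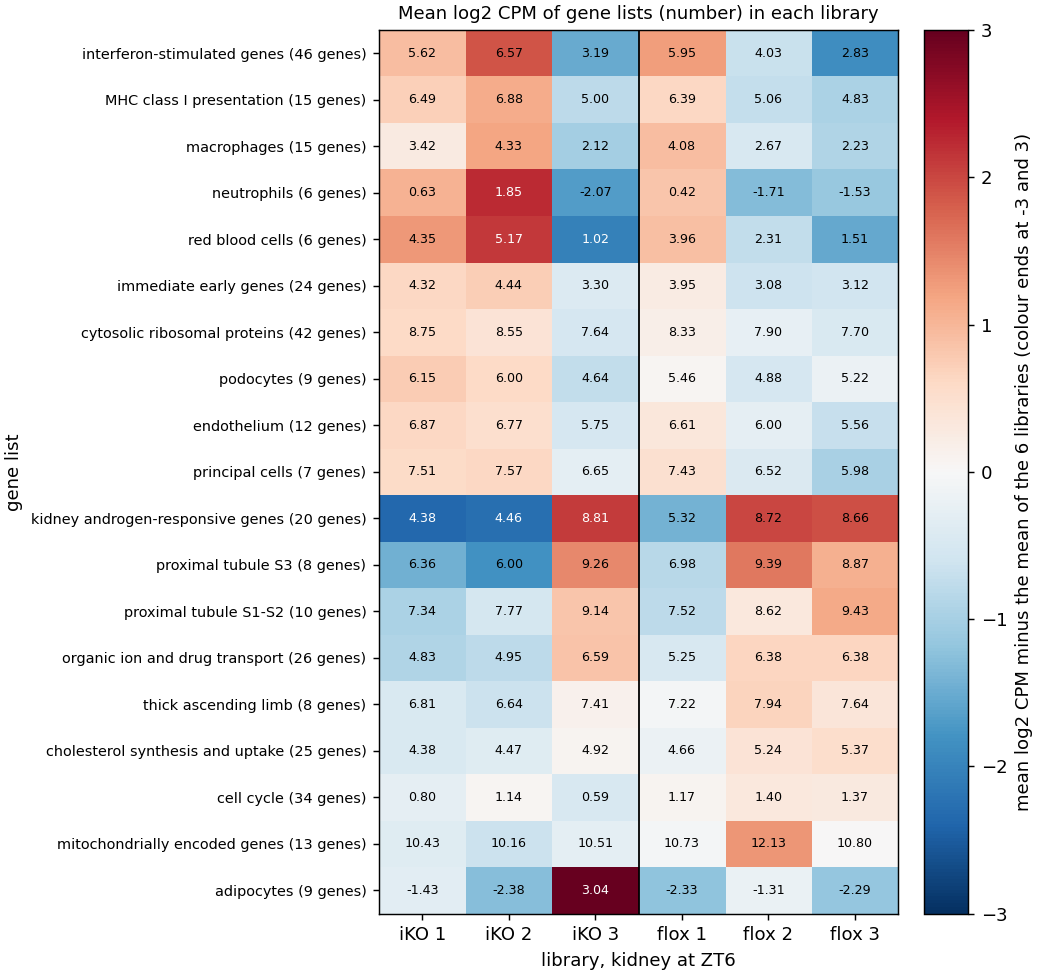
Mean log2 CPM of 19 gene lists (rows, number of genes in brackets) in the 6 kidney ZT6 libraries (columns, iKO on the left of the line, flox on the right), with colour giving the value minus the mean of the 6 libraries. iKO 1, iKO 2 and flox 1 share high interferon values (5.62, 6.57 and 5.95) and low androgen-responsive values (4.38, 4.46 and 5.32), and iKO 3 alone is high for adipocyte markers (3.04).

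Of the genes in the 56 lists, none was called by edgeR with all libraries, and Npas2 is the only gene that DESeq2 called. Among 30 genes of sodium transport 2 had an unadjusted p under 0.05, both lower in iKO (2.72% of all genes). Among 12 of the renin-angiotensin system 1 did, also lower in iKO. This was Mme, which encodes the peptidase neprilysin, with 156, 127 and 273 CPM in iKO and 350, 274 and 294 CPM in flox. Among 26 matrix genes Loxl4, a lysyl oxidase, had 5.88, 28.1 and 15.8 CPM in iKO and 3.54, 1.96 and 2.02 CPM in flox, with no overlap. Of 20 acute phase genes 4 had an unadjusted p under 0.05, all higher in iKO (3.5% of all genes). The iKO libraries lay entirely above flox in 3 and entirely below in 1 (3.61% and 3.29% of all genes). The list averaged 1.69, 2.47 and 1.34 log2 CPM in iKO and 1.76, 0.79 and 0.72 log2 CPM in flox. Its 3 highest libraries were iKO 1, iKO 2 and flox 1. Hp, haptoglobin, had 6.84, 12.7 and 7.91 CPM in iKO and 3.06, 1.01 and 0.345 CPM in flox. In both Loxl4 and Hp the iKO libraries lay above flox in every case, and the difference without the 11 numbers was 2.99 and 3.57.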

How the data were processed

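The authors deposited 1 table of raw read counts, as whole numbers per gene, for 36 libraries of each of 3 tissues. Per the labels' protocols, Trizol RNA, a NEBNext Ultra kit and 150 bp Illumina reads were used. Per the submitters' processing notes, HISAT2 2.0.4 and featureCounts 1.5.0-p3 were used, with DESeq2 1.16.1 and GRCm38 (mm10). Settings, strand included, are not given in the sources used, and overlapping and antisense genes may share reads. Only 2.81% of 52046 gene IDs share a start or end with GENCODE M21 (GRCm38), so gene coordinates here are GENCODE's and not the table's.

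The 36 kidney libraries, matched by column name, were filtered (filterByExpr over 12 groups), scaled by TMM and fitted in edgeR 4.0.16 (R 4.3.3) with 1 mean per genotype and time, by estimateDisp, robust glmQLFit and glmQLFTest, with Benjamini-Hochberg adjustment over all genes. The common biological coefficient of variation was 0.302. Contrasts were iKO minus flox at ZT6, that minus the mean of the other 5 times, and, in a fit of all tissues, that minus the liver difference. Log2 CPM uses a prior count of 2. Total counts of 17345616 to 20632130 per library set the precision, and few reads lie behind values under 1 CPM. The script was tested on simulated counts that held no split within groups, so that test does not cover the split seen here.

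Members and lists (1004 entries, 35 pathway and 21 cell type lists) were chosen with earlier results of these data known. Named genes are all clock genes, 12 with the smallest p in each direction (mean log2 CPM of at least 1), and up to 4 with the smallest p per list. For each contrast of differences 3 are named. Predicted genes and pseudogenes were passed over for the 12 and for the 3. Some genes within this rule are not reported here. Alternatives were DESeq2 1.42.0, its size factors, no filter, a block for replicate number, ZT6 libraries alone, each ZT6 library left out, and the 11 numbers left out.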

Additional observations from a re-analysis of the deposited data

How the results depend on the processing

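Under every alternative run except those named next, edgeR called 0 genes for iKO minus flox at ZT6, 0 for that difference against the other 5 times and 0 for that against liver. DESeq2 called 1 gene at ZT6 and 78 against liver, and without the 11 numbers 7 were called against liver. Leaving out each ZT6 library in turn gave 0 to 1 calls at ZT6, 0 to 2 against the other times (2 without flox 3) and 0 in every case against liver, and the cause was not tested. Of 72 named genes, 65 kept their sign in all alternatives. Signs turned without the 11 numbers for Cbr3 (-0.13), Per1 (-0.47), Klf2 (-0.19), Per2 (-0.093) and Tapbpl (-0.024). Leaving out each ZT6 library in turn gave -0.32 (without iKO 1) to 0.76 (without flox 1) for Per1, -0.37 (without iKO 1) to 0.24 (without iKO 2) for Per2, which was also -0.10 without flox 3, -0.043 (without iKO 2) to 1.90 (without flox 1) for Arntl, and -0.080 (without iKO 3) to 0.24 (without iKO 1) for Clock. With the replicate number as a block Per2 was -0.030, and -0.020 in the 6 ZT6 libraries alone with that block. The cause of these turns was not tested. The block gave 0 calls in each of the 3 comparisons. Libraries of the same number correlated in their deviations at 0.40, -0.30 and 0.43 for numbers 1, 2 and 3. Not every library correlated best with its own number, as iKO 2 did so with flox 1 (0.53). The deviations are from means of 3 libraries and carry the split named above, so they cannot decide whether the numbers pair the samples. Values under 1 CPM rest on few reads, which limits differences of genes such as Ccnb1.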
